A study of Mus musculus with 64 samples.

Results

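The vestibular organ of the mouse embryo was compared with the tissues that follow it, the saccule and the utricle with its 3 ampullae, on 12 of the 64 arrays of the series. The earlier group was the vestibular organ at E11.5 and E12, with 4 arrays, and the later groups were the saccule at E12.5 and E13, with 4 arrays, and the utricle with ampullae at E12.5 and E13, also with 4 arrays. The arrays were chosen by their tissue and stage labels alone. All embryos were CBA/J, a common inbred strain, with no engineered allele or treatment named in the labels, and each array held a pool of epithelium dissected after dispase digestion, with the duplicates of a stage drawn from different litters. Pools held 12 to 15 tissues for the vestibular organ, 7 to 12 for the saccule and 9 to 13 for the utricle with ampullae. The vestibular organ was the dorsal region of the inner ear without the endolymphatic duct, so a saccule or a utricle at E12.5 is a portion of what had been taken whole at E12. In such bulk samples, a change in the share of cells of a type and a change in RNA per cell cannot be told apart.

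The vestibular part of the ear comprises the semicircular canals, the ampullae with their cristae, the utricle and the saccule. The maculae of the utricle and the saccule sense gravity and linear acceleration through hair cells, whose bundles are coupled to an otoconia-laden membrane, and the cristae sense rotation through a gelatinous cupula. Atoh1 starts the hair cell programme and Gfi1 follows it, while BMP, Wnt and retinoic acid signals pattern the epithelium around the sensory patches.

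Values are array signals after quantile normalisation, for which the lowest possible value, the floor, is 10. Differences are on the scale log2(signal + 16) with their standard error (SE), which understates the change of genes near the floor. A gene is called higher or lower, or said to have risen or fallen, where its difference is at least 1 log2 and limma's adjusted p is below 0.05. The later level is the mean of the saccule and the utricle with ampullae, each with equal weight. Where a tissue's 95% interval against the vestibular organ lay within 1 log2 of no change while the other tissue was called, the first tissue is said to keep the earlier level. Cochlea of the same stages, 4 arrays at E11.5 and E12 and 4 at E12.5 and E13, was set beside each change.

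Of 9352 genes tested, 182 (1.95%) were called between the vestibular organ and the later vestibular tissues, 75 higher (0.802%) and 107 lower (1.14%). The hair cell regulators Gfi1 and Atoh1 rose in both later tissues. Of the 4 genes of the membranes above hair cells that rose in the mean, only Tecta was also called in the utricle with ampullae. Cyp26a1, which breaks down retinoic acid, fell in both tissues. Genes of dorsal pattern were also among those that fell in the mean, with Bmp4, Meis1 and Meis2 called in the saccule alone. With the signals as deposited, whose trimmed means were lower in the later tissues, 17.4% of the calls were higher rather than 41.2%, around a median over all genes of -0.18. Trimmed mean signals as deposited were 310.7 to 322.5 in the vestibular organ, 247.9 to 257.4 in the saccule and 262 to 286.4 in the utricle with ampullae, so the groups did not overlap in overall brightness before normalisation. Pools of the same tissue and stage had correlations of 0.9573 to 0.9914 over the probe sets, lowest for the utricle with ampullae at E12.5. All 8 later arrays lay on 1 side of the 4 earlier ones for 630 genes (6.74%), of which 107 (1.14%) were also called.

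Gfi1 and Atoh1, regulators of hair cell differentiation, rose in both later tissues, while 14 of the 17 hair cell genes measured were not called. Gfi1, a zinc finger repressor needed by hair cells, was at or near the floor in the vestibular organ, with signals of 10, 10, 11.1 and 16.7. It reached 112, 73.9, 260 and 142 in the saccule and 29.5, 25.7, 95.9 and 71.0 in the utricle with ampullae. Every later array was above every earlier one, and within each tissue the E13 arrays were above the E12.5 arrays. The rise was 1.83 log2 ± 0.13 SE (limma adjusted p = 1.2e-13), with 2.43 ± 0.15 in the saccule and 1.24 ± 0.15 in the utricle with ampullae. Those tissues differed by 1.19 ± 0.15 (limma adjusted p = 1.2e-07), so both left the earlier level and the saccule left it further. All 8 cochlear arrays of the same stages were at the floor of 10, and the difference from the cochlea was 1.83 ± 0.20 (limma adjusted p = 9.7e-08).

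Atoh1, the transcription factor that starts hair cell differentiation, rose by 1.41 ± 0.11 (limma adjusted p = 3.4e-12). Its signals were 15.7, 15.7, 26.1 and 25.6 in the vestibular organ, 68.8, 84.2, 149 and 128 in the saccule, and 53.6, 43.9, 89.7 and 68.2 in the utricle with ampullae. Every later array was above every earlier one, and neither tissue kept the earlier level. The saccule and the utricle with ampullae overlapped, and their difference of 0.61 was not called. In the cochlea Atoh1 stayed between 10 and 19.4, and the vestibular rise exceeded the cochlear change by 1.52 ± 0.17 (limma adjusted p = 1.2e-07). Of 17 hair cell genes measured, 2 were called higher and 1 lower, beside 0.802% and 1.14% of all genes. The list median was 0.10 against 0.00 over all genes. The gene called lower was Espn, an actin bundler of stereocilia, at -1.02 ± 0.34 (limma adjusted p = 0.026). Its E13 signals of 31.0 and 146 in the saccule differed widely between pools. Leaving out 1 array at a time gave -1.24 to -0.80, and the call of Espn was lost in 7 of the 12 cases, at a limma adjusted p of up to 0.11: without the first pool of either later tissue at either stage, the first vestibular organ pool of E12, or either vestibular organ pool of E11.5. Ush1c, which encodes harmonin of the stereocilia links, rose in the saccule by 1.66 ± 0.20 and was at 0.05 ± 0.20 in the utricle with ampullae.

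**Figure D1:**
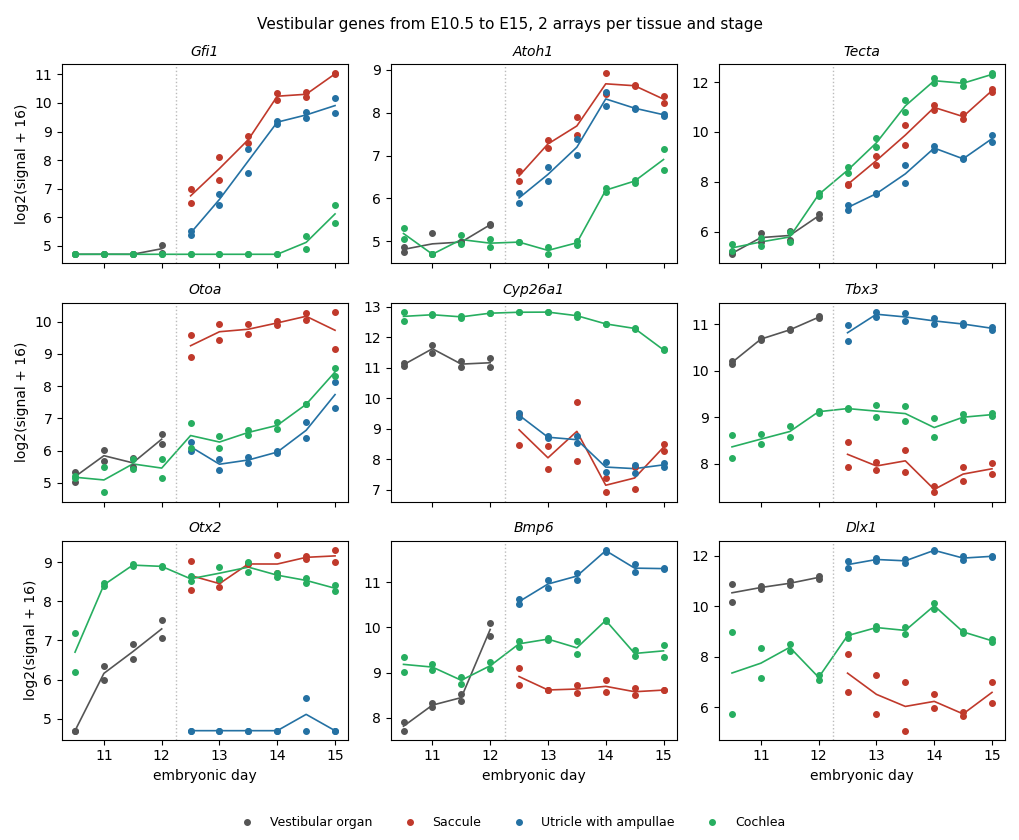
Signal of 9 genes, as log2(signal + 16), against embryonic day from E10.5 to E15, with 1 point per array, lines through the means of 2 arrays, and colours for the 4 tissues; the dotted line separates E12 from E12.5. Gfi1 and Atoh1 climb in both vestibular tissues, Otoa in the saccule, Cyp26a1 drops in both while the cochlea stays high, and Tbx3, Otx2, Bmp6 and Dlx1 divide between the saccule and the utricle with ampullae.

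Of 14 genes of the acellular membranes, 4 were called higher in the mean of the later tissues, 5 in the saccule and 2 in the utricle with ampullae, beside 0.802%, 2.33% and 0.952% of all genes. Tecta, which encodes alpha-tectorin of the tectorial and otolithic membranes, was at 48.4, 35.4, 78.6 and 88.2 in the vestibular organ. It was at 218, 225, 393 and 508 in the saccule and at 102, 117, 172 and 165 in the utricle with ampullae, so the tissues formed 3 ranges that did not overlap. The rise was 1.57 ± 0.13 (limma adjusted p = 3.4e-12), and the saccule was 1.13 ± 0.15 above the utricle with ampullae. The cochlea rose too, by 2.38 ± 0.15, and the vestibular change was 0.81 ± 0.20 smaller than the cochlear one, short of the size needed for a call. Otoa, which encodes otoancorin at the base of these membranes, showed the widest split of the group. It was at 28.5 to 74.7 in the vestibular organ and at 26.6 to 60.7 in the utricle with ampullae, while the saccule held 467, 754, 674 and 967. Its saccular rise was 3.48 ± 0.20 against -0.14 ± 0.20 in the utricle with ampullae, which kept the earlier level. None was called lower in the mean (7 had an unadjusted limma p below 0.05, all higher), and the 4 higher ones were Otoa, Tecta, and the type IX collagen genes Col9a1 and Col9a2. Those collagen genes rose in the saccule, by 2.20 and 1.76, and were not called in the utricle with ampullae, at 0.60 and 0.47. The list median was 0.65, against 0.00 over all genes, and 10 did not pass, among them the otoconial gene Oc90 at -0.27 ± 0.14 and Otog at 0.63 ± 0.12. Col9a2 lost its call without the second saccule pool of E13, at 0.87.

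The largest rise of all among genes whose arrays separated was that of Agr3, a disulfide isomerase of secretory epithelia, at 3.17 ± 0.15 (limma adjusted p = 1.3e-18). Its signals were 45.6, 44.4, 278 and 252 in the vestibular organ, 1764, 1603, 2663 and 3071 in the saccule, and 444, 572, 717 and 787 in the utricle with ampullae. The gene had thus begun to rise by E12, and the saccule went furthest, 1.81 ± 0.18 above the utricle with ampullae. Matn4, a cartilage matrix matrilin, rose by 2.77 ± 0.27 in the mean of the tissues, from 19.3 to 63.0 in the vestibular organ to 192 to 829 in the saccule and 121 to 471 in the utricle with ampullae. Ttyh1, a chloride channel family member, rose by 1.91 ± 0.15 and almost equally in the saccule, at 2.00 ± 0.18, and in the utricle with ampullae, at 1.82 ± 0.18, whereas its cochlear change was 0.36 ± 0.18. This holds for 1 of its 3 probe sets, since the other two changed by 0.08 and 0.28. Grp, a secreted neuropeptide, rose by 1.45 ± 0.14, from 10 to 24.4 in the vestibular organ to 52.9 to 134 in the saccule and 27.5 to 87.6 in the utricle with ampullae. Both Ttyh1 and Grp rose more than in the cochlea, by 1.55 ± 0.24 and 1.35 ± 0.21.

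Smoc2, a matricellular calcium-binding protein, Scg5, a chaperone of prohormone convertase, Uts2, a secreted peptide, and Aldh1a3, a retinoic acid synthesising enzyme, completed the leading rises beside Per3 and Il10rb. Uts2 was the gene among the 24 leading ones for which the utricle with ampullae was not called: it was at 127 to 218 in the vestibular organ, 730 to 901 in the saccule and 225 to 353 in the utricle with ampullae. That saccular rise was 2.12 ± 0.15 and the utricular change 0.75 ± 0.15, whose interval reached past 1 log2, so no tissue met the rule for keeping the level. Smoc2 and Scg5 already climbed within the vestibular organ, by 1.68 and 1.58 from E11.5 to E12, and climbed in the cochlea alike.

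Several of the leading falls were shared with the cochlea. Tmem267, a membrane protein gene, held 1384, 1482, 534 and 705 in the vestibular organ and 43.5 to 78.2 over the 8 later arrays, a fall of -3.57 ± 0.17 (limma adjusted p = 5.4e-19). The saccule and the utricle with ampullae both changed by -3.57, and the cochlea changed by -3.46 ± 0.19, so the difference from the cochlea was -0.11 ± 0.25. Lnx2, a ubiquitin ligase gene, Ppp2cb, a phosphatase subunit, Timm10, a mitochondrial import chaperone, and Mrpl22, a mitochondrial ribosomal protein, fell in the same manner, by 2.79, 2.71, 2.39 and 2.11 on the log2 scale. Dstyk, D930016D06Rik and Pip4k2c did so too, and none of these 8 genes differed between the vestibular and the cochlear change beyond the threshold. Tmem267 was at 6.18 log2 in the vestibular organ at E10.5, 8.93 at E11 and 9.30 at E12, with a peak at E11.5 between them, then at 6.26 in the saccule and 6.14 in the utricle with ampullae at E12.5. The high level was therefore a feature of E11 to E12 in the vestibular organ and the cochlea alike. The single probe sets of Dstyk and Pip4k2c that were used stand alone, since their second probe sets changed by -0.25 and 0.01.

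**Figure D2:**
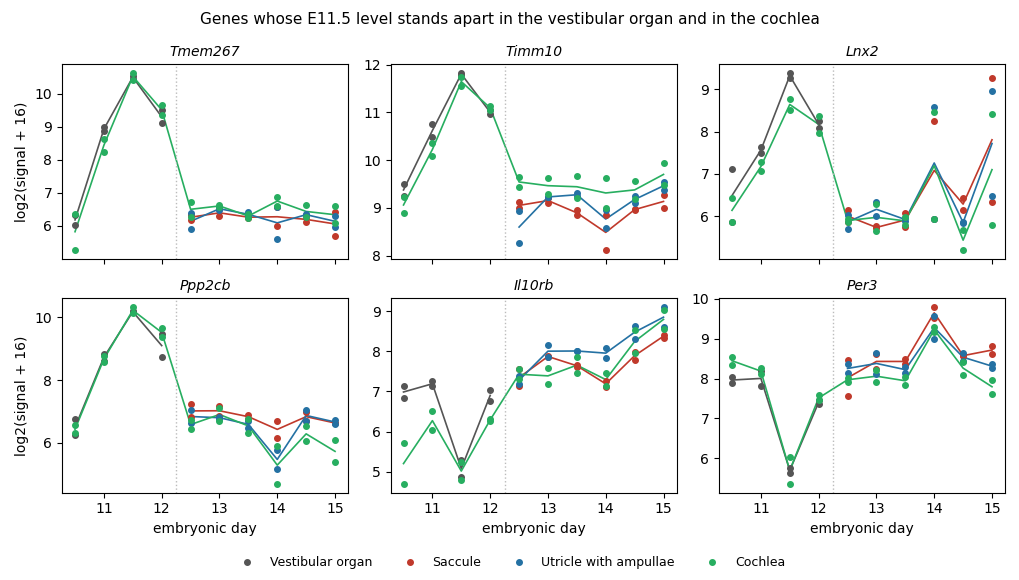
Signal of 6 leading genes, as log2(signal + 16), against embryonic day from E10.5 to E15, with 1 point per array and lines through the means of 2 arrays for each of 4 tissues; the dotted line separates E12 from E12.5. Tmem267, Timm10, Lnx2 and Ppp2cb peak and Il10rb and Per3 dip at E11.5, in the vestibular organ and the cochlea alike.

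Per3, a circadian period gene, and Il10rb, a cytokine receptor chain, ran opposite to these. Per3 was at 33.6 and 38.0 at E11.5, 160 and 147 at E12, and 173 to 384 in the later vestibular tissues. Its rise of 1.72 ± 0.17 stood at 0.86 when E12 alone was the earlier stage, and that of Il10rb, 1.63 ± 0.18, stood at 0.72; neither was then called. The cochlea rose by 1.41 and 1.75. The second probe set of Per3 changed by 0.70 in the vestibular comparison and was not called. Among the 182 genes, the E11.5 arrays lay further than the E12 arrays from the later tissues for 140, and further by at least 1 log2 for 36. With E12 alone, 28.9% of the calls were higher rather than 41.2%. All vestibular organ arrays are of E12 or before and all saccule and utricle arrays of E12.5 or after, so stage, dissection and any change in processing between those days cannot be told apart.

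Cyp26a1 had the largest fall among the 24 leading genes for which the difference from the cochlea was called. The enzyme clears retinoic acid, and its gene is a direct target of retinoic acid receptors. Signals were 2348, 2079, 2529 and 2055 in the vestibular organ, 693, 336, 188 and 326 in the saccule, and 651, 710, 397 and 415 in the utricle with ampullae. The fall was -2.35 ± 0.20 (limma adjusted p = 1.5e-11), -2.64 ± 0.23 in the saccule and -2.06 ± 0.23 in the utricle with ampullae, so neither tissue kept the earlier level. The 8 cochlear arrays held 6317 to 7280 throughout, and the difference from the cochlea was -2.44 ± 0.31 (limma adjusted p = 8.3e-07). Most of the drop fell between E12 and E12.5, by 2.20 in the saccule and 1.72 in the utricle with ampullae, while the vestibular organ had moved by 0.04 from E11.5 to E12.

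Other retinoic acid genes moved in both directions. Of 10 measured, 2 were called higher and 4 lower, beside 1.95% of all genes called in either direction. Without the first pool of E11.5, of the utricle with ampullae at E12.5, or of the saccule at E12.5 or E13, only 1 was called higher. Aldh1a3, which makes retinoic acid, rose in each tissue, by 1.36 ± 0.18 in the saccule and 1.51 ± 0.18 in the utricle with ampullae, and by 1.56 ± 0.18 in the cochlea. Aldh1a2, another synthesising enzyme, was at 286, 276, 251 and 244 in the vestibular organ and at 57.1, 52.1, 56.6 and 35.9 in the saccule, a fall of -2.09 ± 0.34. The utricle with ampullae kept the earlier level of Aldh1a2, at -0.13 ± 0.34, with signals of 165 to 336. Aldh1a1, the third enzyme of that kind, was also lower in the saccule than in the utricle with ampullae, by 1.71 ± 0.19 on the log2 scale, but here the utricle with ampullae rose, at 1.03 ± 0.19, and the saccule was at -0.68 ± 0.19, so that no tissue met the rule for the earlier level. Crabp1 and Crabp2, which bind retinoic acid in the cytoplasm, fell by 1.24 and 1.23 on the log2 scale. Rarb, a retinoic acid receptor and itself a target, rose by 1.06, with 1.51 ± 0.19 in the saccule and 0.60 ± 0.19, not called, in the utricle with ampullae. The higher call lost without single pools, given above, was that of Rarb. Its signals were 34.5 to 79.4 in the vestibular organ, 134 to 253 in the saccule and 75.4 to 121 in the utricle with ampullae. The direction of change thus differed among genes for synthesis, binding and breakdown.

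The Cyp26a1 and Rarb promoters are shown because these genes, both known targets of the receptor, have upstream windows that share a motif. In the mean of the later tissues Cyp26a1 fell and Rarb rose. The call of Rarb depended on single arrays, and its change in the utricle with ampullae was not called. Retinoic acid receptors bind direct repeats of a half-site spaced by 5 bases, and the pattern searched was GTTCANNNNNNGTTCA, on both strands, in the 250 bases before each annotated start. It was present in 22 of 32851 windows (0.067%) of the RefSeq promoter table (GRCm38.p6), and in 2 of the 7 measured retinoic acid genes that have a window there. The first count is of windows and the second of genes, so their shares cannot be compared. Both genes with the match are known receptor targets, so the counts are no test of enrichment. The Cyp26a1 window is chr19:37697558-37697807 on the plus strand and the Rarb window is chr14:16575477-16575726 on the minus strand, both upstream of the first exon. Each is written 5′ to 3′ in the direction of its gene, and capitals mark the match, which in Cyp26a1 is on the opposite strand.
Cyp26a1: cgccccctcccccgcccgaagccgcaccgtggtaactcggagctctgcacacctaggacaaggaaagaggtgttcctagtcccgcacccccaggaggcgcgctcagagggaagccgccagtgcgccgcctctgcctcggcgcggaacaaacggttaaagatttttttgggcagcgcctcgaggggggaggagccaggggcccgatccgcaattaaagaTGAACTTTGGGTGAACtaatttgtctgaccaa
Rarb: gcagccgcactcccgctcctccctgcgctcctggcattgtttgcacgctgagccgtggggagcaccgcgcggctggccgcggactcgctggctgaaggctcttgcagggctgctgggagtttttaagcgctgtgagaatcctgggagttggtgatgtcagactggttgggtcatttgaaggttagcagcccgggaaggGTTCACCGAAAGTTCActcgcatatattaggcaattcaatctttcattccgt

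The match began 32 bases before the annotated start of Cyp26a1 and 52 bases before that of Rarb. A match describes letters, and no binding was measured here.

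**Figure D3:**
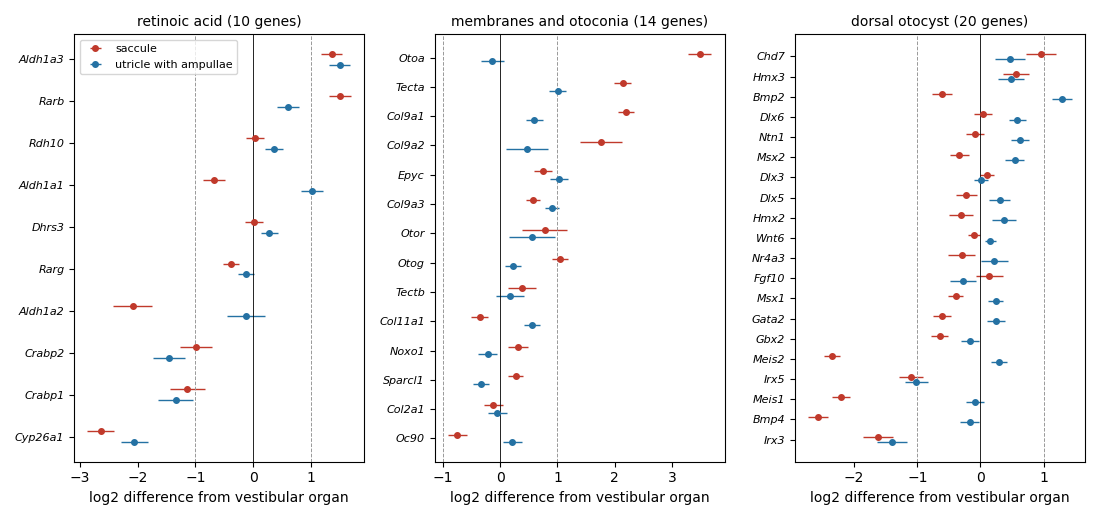
Change of each measured gene of 3 lists from the vestibular organ, on the log2 scale with SE bars, in the saccule (red) and in the utricle with ampullae (blue), 4 arrays each against the same 4; dashed lines mark 1 log2. Cyp26a1, Crabp1 and Irx3 lie to the left in both tissues, and Otoa, Bmp4, Meis1, Meis2 and Aldh1a2 are far from 0 in the saccule and near it in the utricle with ampullae.

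Which tissue kept the earlier level was asked gene by gene. The saccule differed from the vestibular organ for 458 genes (4.9%), 218 higher and 240 lower, and the utricle with ampullae for 178 genes (1.9%), 89 (0.952%) in each direction. As deposited, 22.8% of the saccular calls and 22.4% of the utricular ones were higher, and with E12 alone 93 utricular calls were made, 23.7% of them higher. Both comparisons share the 4 vestibular organ arrays. Of the 182 genes called in the mean of the tissues, 87 were called the same way in each, 75 in the saccule alone and 20 in the utricle with ampullae alone. The tissues themselves differed at E12.5 and E13 for 322 genes (3.44%), 162 higher in the saccule and 160 higher in the utricle with ampullae. Among these, the utricle with ampullae kept the earlier level of 148 while the saccule departed, and the saccule kept that of 16 while the utricle with ampullae departed. A further 10 departed in opposite directions, 5 in the same direction to a different extent, and 143 fell outside these classes, 107 of them with neither tissue called.

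The split was seen again at later stages. In the saccule and utricle arrays of E13.5 to E15, which the comparison at E12.5 and E13 did not use, 269 of all genes (2.88%) were called, 1.28% higher in the saccule and 1.59% lower. Of the 322 genes, 170 (52.8%) were called there in the same direction and 1 in the opposite one. The same held for 88 of the 148 whose level the utricle with ampullae kept, 8 of the 16 whose level the saccule kept, and all 10 that departed in opposite directions. The count of 16 is loose: without the second utricle pool of E13 it was 40, without the second saccule pool of E12.5 it was 10, and with E12 as the only earlier stage it was 6.

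**Figure D4:**
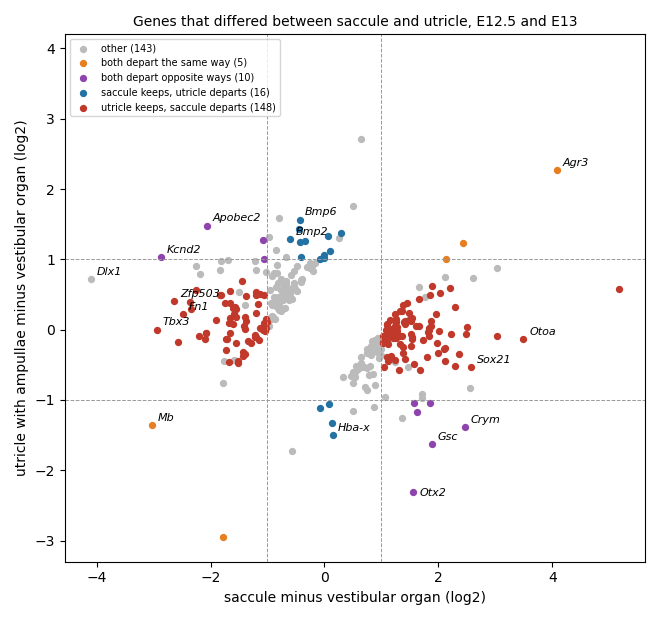
Change from the vestibular organ in the saccule (x axis) and in the utricle with ampullae (y axis), on the log2 scale, for the 322 genes that differed between those tissues; both axes share the 4 vestibular organ arrays, and dashed lines mark 1 log2. The 148 red points spread along the x axis within 1 log2 of 0 on the y axis, and the 16 blue points spread along the y axis.

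Patterning genes were among those whose level the utricle with ampullae kept. Tbx3, a T-box repressor, was at 1879, 1848, 2278 and 2226 in the vestibular organ, 1577, 2019, 2451 and 2264 in the utricle with ampullae, and 338, 228, 217 and 247 in the saccule. The vestibular organ and the utricle with ampullae overlapped and the saccule lay apart below both. Its change was 0.00 ± 0.15 in the utricle with ampullae and -2.94 ± 0.15 in the saccule (limma adjusted p = 2e-18), and at E13.5 to E15 the difference between those tissues was -3.24 ± 0.10. Bmp4, a BMP ligand of the prospective cristae and canals, was at 308 to 396 in the vestibular organ, 252 to 380 in the utricle with ampullae and 35.0 to 59.9 in the saccule. Matrix and other genes were kept too. Fn1, the matrix protein fibronectin, was at 4666 to 4990, 4716 to 6650 and 744 to 941 in the same order. Zfp503, a zinc finger repressor, fell in the saccule by 2.64 on the log2 scale and was at 0.41 ± 0.17 in the utricle with ampullae. Timp3, a metalloproteinase inhibitor, changed by -2.37 ± 0.14 and 0.39 ± 0.14, and Vit, a matrix protein, by -2.25 ± 0.14 and 0.57 ± 0.14, with 3 of the 4 saccule arrays at the floor for Vit, so that its fall is a lower bound.

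Of 20 dorsal otocyst and canal genes measured, none was called higher and 5 lower in the mean of the later tissues, beside 0.802% and 1.14% of all genes; without the second vestibular organ pool of E11.5 the 5 became 3. Meis1 and Meis2, homeobox cofactors, behaved as Bmp4 did, at -2.21 ± 0.14 and -2.35 ± 0.13 in the saccule and -0.08 ± 0.14 and 0.29 ± 0.13 in the utricle with ampullae. Irx3 and Irx5, Iroquois homeobox genes, instead fell in both tissues, with no tissue keeping the earlier level. Irx3 was at 630 to 898 in the vestibular organ, 150 to 353 in the saccule and 244 to 366 in the utricle with ampullae, while in the cochlea it went from 1075 to 1239 up to 1449 to 1915. Irx5 fell by 1.10 and 1.01 on the log2 scale in those tissues, and lost its call in their mean without the second vestibular organ pool of E11.5. The list median was -0.01 in the mean of the later tissues, against 0.00 over all genes. It was -0.32 in the saccule and 0.24 in the utricle with ampullae, against 0.01 and -0.01 over all genes. In the utricle with ampullae 1 of the 20 was called higher and 2 lower, beside 0.952% of all genes in each direction. Tbx1, a T-box gene that limits neural fate in the otocyst, fell in the saccule by 1.73 on the log2 scale and was at -0.13 ± 0.23 in the utricle with ampullae.

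The saccule gained other genes that the utricle with ampullae kept at the earlier level. Beside Otoa these were led by Cars, Art3, Sox21 and Ckb. Sox21, a SOX transcription factor of sensory epithelia, was at 467 to 814 in the vestibular organ, 283 to 559 in the utricle with ampullae and 3212 to 4648 in the saccule. The saccular rise was 2.57 ± 0.23 (limma adjusted p = 1.4e-11), and the cochlea, at 1983 to 2905, did not change, at 0.04 ± 0.23. Art3, an ADP-ribosyltransferase family gene, held 90.7 to 107 in the vestibular organ, 62.3 to 117 in the utricle with ampullae and 577 to 1407 in the saccule. Ckb, brain creatine kinase, rose in the saccule by 2.28 ± 0.17 and was at -0.52 ± 0.17 in the utricle with ampullae. The 5.16 ± 0.18 of Cars, a cysteinyl-tRNA synthetase gene, rests on 1 of its 2 probe sets, since the other differed by 0.02 between the tissues. For the probe set used, 3 of the 4 vestibular organ arrays were at the floor. The utricle with ampullae met the rule for Cars only as a mean over its stages, at 0.58. Its level changed by -0.51 from the vestibular organ of E12 to E12.5 and by 1.67 from E12.5 to E13. At E13.5 to E15 the saccule exceeded the utricle with ampullae by 1.57 for Cars.

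Bmp6 and Bmp2, which encode BMP ligands, ran opposite to the ligand gene Bmp4: here the saccule met the rule for the earlier level and the utricle with ampullae rose. Bmp6 was at 314, 352, 876 and 1085 in the vestibular organ, 1439, 1572, 2092 and 1865 in the utricle with ampullae, and 529, 409, 374 and 378 in the saccule. The utricular rise was 1.57 ± 0.11 (limma adjusted p = 7e-14) and the saccular change -0.44 ± 0.11. The earlier level here is a mean over a steep climb of 1.51 from E11.5 to E12, and against E12 alone the saccule was 1.19 below and called, while the utricle with ampullae was 0.81 above and not called. Bmp2 behaved alike, at 27.3 to 61.0 in the vestibular organ, 106 to 162 in the utricle with ampullae and 18.9 to 28.7 in the saccule. Its utricular rise of 1.29 ± 0.16 came to 0.92 against E12 alone. Enpep, an aminopeptidase of the angiotensin pathway, rose in the utricle with ampullae by 1.44 ± 0.16 against -0.45 ± 0.16 in the saccule, and by E13.5 to E15 the tissues differed by -4.35 ± 0.12, saccule minus utricle. Notch2, a Notch receptor, was at 1458, 618, 325 and 375 in the utricle with ampullae, where the first pool of E12.5 stood far above the rest. Without it the utricular change was 0.96 and no longer called, and a second Notch2 probe set differed by -0.45 between the tissues.

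For 4 genes the utricle with ampullae fell and the saccule kept the earlier level. Wfdc2, a secreted protease inhibitor of epithelia, was at 463 to 765 in the vestibular organ, 600 to 779 in the saccule and 218 to 260 in the utricle with ampullae, a utricular fall of -1.32 ± 0.14 (limma adjusted p = 3e-09). For Hba-x, an embryonic haemoglobin chain, the saccular mean of 0.14 held changes of 0.97 from E12 to E12.5 and -1.20 from E12.5 to E13. In the cochlea Hba-x changed by -1.55, -0.98 and -0.44 over the successive steps from E11.5 to E13. Hba-x, Fez1, a transport adaptor of neurons, and Fxyd6, a sodium pump regulator, changed by -1.5 ± 0.31, -1.05 ± 0.22 and -1.11 ± 0.17 in the utricle with ampullae. Without the first utricle pool of E12.5, Fez1 and Fxyd6 lost this call, at -0.92 and -0.98. Their differences between the saccule and the utricle with ampullae lost the call without any 1 of 2 arrays for Fez1 and any 1 of 4 for Fxyd6, down to 0.93 and 0.82.

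Some genes left the earlier level in opposite directions. Otx2, a homeobox gene of the ventral otocyst, was at 103, 76.3, 168 and 118 in the vestibular organ and rose to 297, 504, 311 and 357 in the saccule, a change of 1.55 ± 0.17. In the utricle with ampullae all 4 arrays were at the floor of 10, so the fall of 2.30 there, and the difference of 3.85 between the tissues (limma adjusted p = 8.7e-21), are lower bounds. Gsc, the homeobox gene goosecoid, went from 63.8 to 122 up to 211 to 456 in the saccule and down to 10 to 29.7 in the utricle with ampullae. Crym, which encodes a thyroid hormone binding crystallin, was at 173 to 243 in the vestibular organ, 992 to 1344 in the saccule and 45.8 to 78.1 in the utricle with ampullae. Kcnd2, a potassium channel gene, and Apobec2, of the cytidine deaminase family, ran the reverse course. Kcnd2 changed by -2.87 ± 0.25 in the saccule and 1.03 ± 0.25 in the utricle with ampullae, and Apobec2 by -2.06 ± 0.28 and 1.48 ± 0.28. The utricular call of Kcnd2 was lost without the first pool of the utricle with ampullae at E12.5, at 0.89, or at E13, or without the first vestibular organ pool of either stage, and that of each was lost with E12 as the only earlier stage, at 0.70 for Kcnd2 and 0.85 for Apobec2.

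Of 19 otic regulators and ventral otocyst genes, 1 was called higher and 1 lower in the mean of the later tissues, with 0 to 2 higher and 1 to 2 lower when 1 array was left out. Between the saccule and the utricle with ampullae, 7 were higher in the saccule and 2 lower, beside 3.44% of all genes called in either direction. The 7 were Otx2, Gsc, Nr2f1, Sall1, Sall3, Ptch1 and Tbx2, and the 2 were Tbx1 and Tbx3. Sox2, a prosensory factor, reached a call in the saccule, at 1.07 ± 0.11, and was at 0.48 ± 0.11 in the utricle with ampullae. Gata3 was low in the vestibular organ, at 63.6 to 90.0, and changed by -0.70 ± 0.17 while the cochlea changed by 0.36 ± 0.20, a difference of -1.06 ± 0.26 (limma adjusted p = 0.0059).

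Few genes of the signalling lists were called in the mean of the later tissues, where 0.802% of all genes were called higher and 1.14% lower. Of 16 BMP and TGF-beta genes, 1 was called higher, Tgfbi, and 2 lower, Bmp4 and the pseudoreceptor Bambi. Tgfbi changed by 2.28 in the saccule and 0.33 in the utricle with ampullae. Its other probe sets changed by 0.86 to 0.97 in the mean and were not called. Bambi lost its call with stage and replicate number together as a random block (limma adjusted p = 0.0517), which leaves 1 lower. It differed widely between pools, at 168, 407, 172 and 486 in the vestibular organ, and lost its call without any 1 of 7 arrays: either second vestibular organ pool, either second pool of the utricle with ampullae, either saccule pool of E12.5 or the second of E13, at -1.08 to -0.71. Wnt genes had 2 of 23 called higher, the inhibitor Dkk2 and the secreted modulator Sfrp2, and none lower. For Sfrp2 the first utricle pool of E12.5, at 311 against 66.8 to 126 in the other utricle arrays, was far above the rest, and the call was lost without it, at 0.87. It was also lost without the first vestibular organ pool of E11.5, the second saccule pool of E12.5 or the first of E13. Wnt4, a ligand, differed between the tissues, with 1.71 ± 0.20 in the saccule and -0.97 ± 0.20 in the utricle with ampullae, and Wnt5a fell in the saccule by 1.60 on the log2 scale. Among 15 FGF genes only the feedback inhibitor Spry2 was called in the mean, at 1.07 ± 0.30, and it lost its call without that utricle pool, at 0.94, or without the second saccule pool of E12.5. Of 23 Notch and prosensory genes, limma called none in the mean, with 15 at an unadjusted p below 0.05 and 7 of those higher. Between the saccule and the utricle with ampullae 1 was called higher and 4 lower, beside 1.73% and 1.71% of all genes. The 4 were Notch2 and the BMP-responsive Id1, Id2 and Id3.

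Of 40 cell cycle genes, 1 was called lower, the mitotic kinesin Kif20a at -1.20 ± 0.14, and 39 were not called, beside 1.14% of all genes called lower; with 1 array left out, 1 or 2 were lower. An unadjusted limma p below 0.05 was found for 23 of the 40, with 1 of those higher. Outside the list, the mitotic genes Kif4 and Nuf2, named after their values were seen, were also called lower, at -1.21 and -1.06. The list median was -0.33 against 0.00 over all genes, and it was -0.22 in the cochlea over the same stages. Mki67 was at 550 to 798 in the vestibular organ and 418 to 567 in the later tissues, a change of -0.48 ± 0.13 that is below the size of a call. The 14 genes of cell cycle exit had a median of 0.34, and limma called none, with 6 at an unadjusted p below 0.05, all higher. Cdkn1b was at 0.44 ± 0.23 by the probe set used and at -0.93 by its other one, so no direction is given. Dusp9, a MAP kinase phosphatase of early embryos, fell by 1.98 on the log2 scale in the mean, 2.20 in the saccule and 1.76 in the utricle with ampullae, with its 3 probe sets between -2.25 and -0.74. Lin28a, an RNA-binding protein of early embryonic cells, was at -0.95 ± 0.17 by the probe set used and at -2.59 by the other.

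The comparison with the cochlea called 232 genes (2.48%) whose vestibular change differed from the cochlear one, 118 higher (1.26%) and 114 lower (1.22%). As deposited, 431 genes were called and 12.8% of them were higher, around a median of -0.26 over all genes; deposited maxima were 9660 to 10060 in the cochlea at E11.5 and E12 and 13707 to 14077 at E12.5 and E13. Of the 182 vestibular genes, 61 were called in the same direction in the cochlea (1.65% of all genes were called there, 0.941% higher and 0.706% lower), 2 in the opposite one, and 46 differed from the cochlea with the sign of their own change. For 57 the 95% interval of the difference lay within 1 log2. The largest negative difference was that of Dlx1, a homeobox gene of the dorsal otocyst, at -2.90 ± 0.53 (limma adjusted p = 0.00031). Dlx1 was at 1793 to 2326 in the vestibular organ, 2908 to 3815 in the utricle with ampullae and 37.4 to 257 in the saccule, while the cochlea rose by 1.22 ± 0.40. The change in the mean was therefore that of the saccule, at -4.09 ± 0.40, with the utricle with ampullae at 0.72 ± 0.40. Chst15, a sulfotransferase of matrix glycans, differed from the cochlea by -2.07 ± 0.21, with a cochlear rise of 1.63 ± 0.16 and a vestibular change of -0.44 ± 0.14.

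On the higher side stood Nxnl2, Hbb-b2, Dkk2, Prl8a6 and Nefm, with differences of 2.18 to 2.28. The difference for Hbb-b2, an adult haemoglobin chain, lost its call in 12 of the fits with 1 array left out. Over all such fits it ranged from 1.75 to 2.71. By the other Hbb-b2 probe set the difference was 0.45 and was not called. Dkk2 was at 22.3 to 61.6 in the vestibular organ and 56.4 to 403 in the later tissues, a rise of 1.91 ± 0.29 in which the second pool of each stage was the lower one. For Nefm, a neurofilament gene, the vestibular change was 0.68 ± 0.40 and the cochlear one -1.5 ± 0.46, and the difference lost its call without the second cochlear pool of E11.5, E12.5 or E13, at 1.69 or above. Nxnl2, Dkk2 and Nefm lost this call with E12 as the only earlier stage. Mb, the myoglobin gene, fell further than in the cochlea by 1.66 on the log2 scale, from 280 to 371 in the vestibular organ to 52.1 to 184 in the utricle with ampullae and 11.2 to 44.9 in the saccule, by 1 of its 2 probe sets; the other changed by 0.19.

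**Figure D5:**
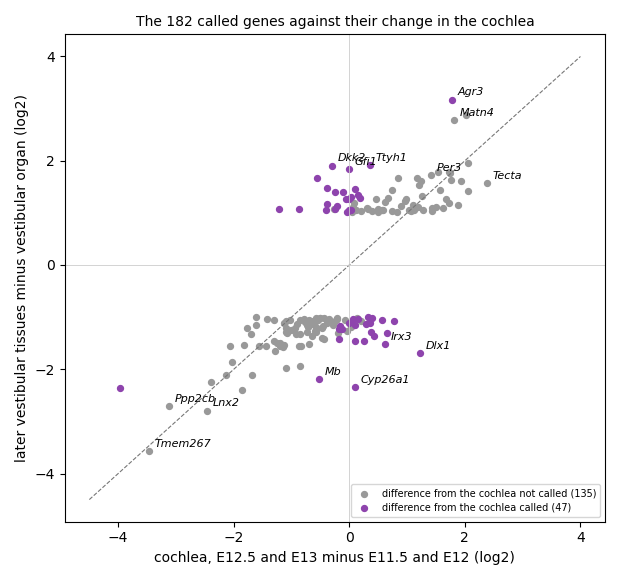
Change of the 182 called genes in the vestibular tissues (y axis, later tissues minus vestibular organ) against their change in the cochlea over the same stages (x axis), on the log2 scale; the dashed line marks equal change. The genes for which the difference from the cochlea was called (purple) include Gfi1, Ttyh1 and Agr3 above the line and Cyp26a1, Irx3 and Dlx1 below it, and Tmem267, Lnx2 and Ppp2cb lie near the line.

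Markers of neighbouring cell types were set beside these changes. The periotic mesenchyme list differed between the later tissues, with 8 of 17 genes called higher in the saccule than in the utricle with ampullae and 2 lower. Of all genes, 1.73% were called higher there and 1.71% lower. In the mean of the later tissues 3 of the 17 were called higher, Postn, Pdgfra and Col1a2, beside 0.802% of all genes. With 1 array left out that count was 2 to 5, with 5 without the second saccule pool of E12.5 or of E13. Pdgfra and Col1a2 each lost their call without any 1 of 3 arrays, at 0.96 to 0.99. Among those arrays were the second vestibular organ pool of E12 and the first utricle pool of E12.5. The other probe sets of Pdgfra and Col1a2 changed by 0.21 and 0.92 in that mean and were not called. In the saccule 9 of the 17 were called higher and 2 lower (beside 2.33% and 2.57% of all genes). In the utricle with ampullae limma called none, with 5 at an unadjusted p below 0.05. The summed signal of the list was 2373 to 3075 in the vestibular organ, 4040 to 5451 in the saccule and 3514 to 4389 in the utricle with ampullae, with no marker at the floor on all 12 arrays. Postn, a matrix protein, went from 31.1 to 59.2 in the vestibular organ to 260 to 440 in the saccule, and the forkhead genes Foxc1, Foxc2 and Foxd1 rose there by 1.53 to 1.86, while the proteoglycans Dcn and Lum fell by 1.84 and 1.70 on the log2 scale. Cartilage markers, with 1 of 9 called higher in each tissue, summed to 2377 to 3550, 4701 to 6067 and 2428 to 3105 in the same order, and red blood cell markers to 3777 to 6407, 5345 to 9839 and 2997 to 4530. Hbb-bh1, an embryonic globin, fell by 2.36 on the log2 scale in the mean of the later tissues with a change of -3.97 in the cochlea. Neuronal markers summed to 3077 to 3726, 3864 to 6998 and 3854 to 5703, and of 20 only Neurod1 was called in the mean, lower by 1.04, a call lost without the second saccule pool of E12.5 or the second utricle pool of E13. Macrophage markers, with 2 of 9 called higher in the saccule, summed to 948 to 1085, 945 to 1443 and 866 to 1003. Endothelial markers, with none of 10 called higher in the saccule and 1 lower, summed to 800 to 1053, 835 to 1015 and 866 to 1021. Glial, neural crest and melanocyte markers, with 1 of 11 called higher and 1 lower in the saccule and a median of -0.49 there, summed to 3128 to 3688, 3711 to 4586 and 3284 to 3720. Epithelial markers summed to 10654 to 10902, 7091 to 10220 and 9029 to 12203, with 3 of 19 called lower in the saccule. The part of these cell types in the saccule's departures was not tested. In the mean of the later tissues limma called none of 10 immediate early and heat shock genes, 16 for ion and water transport and 18 for glycolysis and hypoxia, with 1, 4 and 8 of them at an unadjusted p below 0.05.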

How the data were processed

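Linear probe set intensities were deposited by the authors, who used MAS5 according to the submitters' processing notes. Sources used here do not give its version or scaling target. The 2% trimmed means of the 64 arrays spanned 1.581-fold, so they were quantile normalised and transformed as log2(signal + 16). Probe sets at or above their array's median on at least 2 arrays were kept, and the brightest of a gene's kept probe sets, by its mean, stood for each of 9352 genes. Gene names came from the platform annotation, in which 20380 of 22626 probe sets had 1 symbol, 691 several and 1555 none.

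A single limma 3.58.1 model in R 4.3.3, with 1 coefficient for each of 32 groups and 32 residual degrees of freedom, gave all contrasts, with two-sided p-values adjusted by the Benjamini-Hochberg method over all genes. The number of arrays limits the precision, and the median SE of the main comparison was 0.13. Named genes were the 12 highest and 12 lowest called differences whose later arrays all lay on 1 side of the earlier ones, up to 5 genes of each saccule or utricle class and each direction against the cochlea, up to 4 called members of a list, and a panel; other list members were named after their values were seen. Members and lists were chosen with earlier results of these data known. The fits were checked on simulated data. Equal replicate numbers of saccule and utricle groups deviated together, at correlations of 0.316 to 0.502, and those of the vestibular organ and the later tissues did not, at -0.123 to 0. Promoter windows are those of the RefSeq table.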

Additional observations from a re-analysis of the deposited data

Results flagged for a closer look

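The changes of these genes differed between tissues by a test of the difference itself; with 2 arrays in each tissue and stage, no search for single outlying arrays was made. The vestibular change minus the cochlear change was 1.40 for Agr3, 1.83 for Gfi1, 1.35 for Grp, 1.55 for Ttyh1, 2.28 for Nxnl2, 2.23 for Hbb-b2, 2.21 for Dkk2, 2.19 for Prl8a6 and 2.18 for Nefm. It was -2.44 for Cyp26a1, -1.66 for Mb, -2.90 for Dlx1, -2.14 for Irx3, -2.07 for Chst15 and -2.02 for Hnrnpd.

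The saccule exceeded the utricle with ampullae by 4.58 for Cars, 3.62 for Otoa, 3.11 for Art3, 3.10 for Sox21, 2.80 for Ckb, 3.85 for Otx2, 3.85 for Crym and 3.52 for Gsc, and by 1.64 for Hba-x, 1.45 for Wfdc2, 1.13 for Fez1 and 1.04 for Fxyd6. It lay below it, with a difference of -3.90 for Kcnd2, -3.54 for Apobec2, -3.04 for Zfp503, -2.94 for Tbx3, -2.82 for Vit, -2.75 for Timp3 and -2.70 for Fn1. The genes whose earlier level the saccule kept differed by -2.0 for Bmp6, -1.90 for Bmp2, -1.89 for Enpep, -1.69 for Cutal and -1.61 for Notch2.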

How the results depend on the processing

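Genes named by the rules above, but not the other list members, were rerun in the comparison that named them. For genes that split between the saccule and the utricle with ampullae, the change of each tissue was rerun too. None of these called differences reversed its direction in any alternative. With every probe set alone, the value of the probe set already used was taken for each gene, so its other probe sets were not compared there. With a pseudocount of 64, calls numbered 97 in the main comparison, 259 for the saccule, 85 for the utricle with ampullae, 191 between them and 121 against the cochlea, and the classes held 94 genes kept by the utricle with ampullae, 5 kept by the saccule and 2 that departed in opposite directions; a pseudocount of 1 gave 18 genes that departed in opposite directions. As deposited, 431 genes differed from the cochlea. Every probe set alone gave 281 calls in the main comparison, 278 for the utricle with ampullae and 369 against the cochlea. With E12 and E12.5 only, 533 genes differed between the saccule and the utricle with ampullae, and 60.8% of them were higher in the saccule. With E12 as the earlier stage, chosen after seeing the data, the utricle with ampullae had 93 calls and the smaller classes 6 and 6 genes, and 28 results lost their call. Leaving out each array in turn gave 169 to 194 calls in the main comparison, 437 to 516 for the saccule, 146 to 237 for the utricle with ampullae, 310 to 398 between them and 160 to 296 against the cochlea. The classes then held 137 to 163 genes kept by the utricle with ampullae, 10 to 40 by the saccule and 7 to 13 opposite ones. A remaining lone array was assumed to vary like the other groups.

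The replicate number as a fixed block left 322 calls between the saccule and the utricle with ampullae, all 322 shared. The main comparison then had 183. Every group held 1 pool of each replicate number, so that block could change no difference, only its error. It changed the call of no named gene that was rerun. Arrays of the same stage and replicate number, taken as a random block with a correlation of 0.244, left 324 calls between those tissues. The random block ended the call of Bambi, at a limma adjusted p of 0.0517. With its correlation fixed at 0.5, the calls of Espn and Fabp7 were lost too, at 0.057 and 0.0926. Genes near the floor of 10 have understated changes.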
